A study of Mus musculus with 12 samples.

Results

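The genes described here are 9 transcripts of the dentate gyrus, the part of the hippocampus that keeps adding neurons in adult mice. They were chosen by name, with earlier results of these data known: 4 markers of mature granule cells (Prox1, C1ql2, Dsp and Calb1) and 5 genes of progenitors and immature neurons (Hes5, Sox11, Neurod1, Dcx and Igfbpl1). All 9 are among the 27978 genes of the deposited table. The samples are RNA from mouse hippocampal tissue after fecal microbiota transplantation (FMT), in 12 libraries, with 4 libraries in each of 3 groups labelled FMT-CON, FMT-DSS and FMT-SP. For the last of these the series text has FMT-DSS+SP, where SP is the neuropeptide substance P. Mice of all 3 groups had received a transplant, and no untransplanted mice are among them. Strain, age, sex, the meaning of CON and DSS and the step at which substance P was given are not in the labels. Whether each library comes from its own animal is not in the labels either, so the p-values measure only the spread between these samples, which may be technical.

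Adult neurogenesis starts from radial glia-like stem cells in the subgranular zone, which Notch signalling keeps in an undivided state. Their daughters become neuroblasts, migrate a short way and mature into granule cells, whose axons, the mossy fibres, contact CA3. Prox1 is the transcription factor that sets and holds granule cell identity, Calb1 encodes a calcium buffer of mature granule cells, C1ql2 a secreted C1q-like protein of mossy fibre synapses, and Dsp the desmosome protein desmoplakin, which in the hippocampus marks granule cells. Hes5 is a repressor induced by Notch in stem cells and is also made in astrocytes. Neurod1 and Sox11 are transcription factors of newborn neurons, Dcx encodes the microtubule protein doublecortin of migrating neuroblasts, and Igfbpl1 an insulin-like growth factor binding protein of immature neurons.

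Sequence before the annotated start is shown for Hes5 and Prox1, the progenitor gene and the granule marker with the largest differences between groups. Each run is 250 bases of the RefSeq promoter table (GRCm38.p6), read 5′ to 3′ on the gene's strand. Of the 9 genes, 7 had an entry. The motifs searched on both strands were GTGGGAA, the site of the Notch effector Rbpj, and CAGATG, an E-box bound by Neurod1. Capitals mark the matches in the following runs, Hes5 at chr4:154960673-154960922 (plus strand) and Prox1, at the farther upstream of 2 annotated starts, at chr1:190170828-190171077 (minus strand).
Hes5: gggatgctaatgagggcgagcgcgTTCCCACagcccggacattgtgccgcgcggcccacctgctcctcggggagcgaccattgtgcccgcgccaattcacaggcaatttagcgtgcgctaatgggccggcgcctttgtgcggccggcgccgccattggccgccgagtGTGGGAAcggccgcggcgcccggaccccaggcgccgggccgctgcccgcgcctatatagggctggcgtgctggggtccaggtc
Prox1: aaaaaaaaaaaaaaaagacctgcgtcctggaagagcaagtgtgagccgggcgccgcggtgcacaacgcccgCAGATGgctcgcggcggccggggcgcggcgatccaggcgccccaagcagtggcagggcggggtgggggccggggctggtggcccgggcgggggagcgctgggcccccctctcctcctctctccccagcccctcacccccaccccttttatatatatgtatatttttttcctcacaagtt
Hes5 had 2 matches to GTGGGAA, 226 to 220 and 83 to 77 bases before its start. At least 1 such match was present in 5.42% of all 32851 promoter windows and at least 2 in 0.161%. Prox1 had 1 match to CAGATG, 179 to 174 bases before the start, as did 14.4% of windows with at least 1 match. None of the other 7 windows of the 9 genes (some have 2 starts) held either motif. A match describes letters only and was not tested for binding.

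Levels are FPKM values, fragment counts scaled by transcript length and by the library's mapped total, and can be compared between genes. Mean levels over the 12 libraries were 55.1 for Calb1, 21.7 for C1ql2, 10.8 for Prox1, 7.64 for Neurod1, 4.41 for Dsp, 2.42 for Dcx, 1.87 for Sox11, 1.63 for Igfbpl1 and 1.35 for Hes5. Calb1 stood above C1ql2 without overlap between libraries (44.7 to 69.2 against 13.9 to 32.3 FPKM), and the ranges of every later pair of neighbours overlapped. Within each library C1ql2 was above Prox1 (Prox1 to C1ql2 ratio of 0.240 to 0.856), Neurod1 above Dsp and Dsp above Dcx. The remaining neighbours changed order between libraries. All 9 genes had a mean of at least 1 FPKM and entered the test, in which 12559 genes were compared. The mapped total, estimated from steps in the FPKM values, was 31500000 to 37300000 fragments per library. At that depth and with its longest annotated transcript, Hes5 rested on about 16.9 to 96.8 fragments per library and Igfbpl1 on 42.3 to 281, while the lowest value of the other 7 genes stood for 311 or more. Hes5 and Igfbpl1 also varied most, with 5.44-fold and 6.76-fold between the lowest and highest library, against 1.55-fold for Calb1.

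Markers of hippocampal neurons were present in all libraries, with CA1 pyramidal markers summing to 115 to 283 FPKM and CA3 markers to 57.4 to 78.6 FPKM. Markers of tissue outside the hippocampus were uneven. Striatal markers summed to 411 FPKM in FMT-DSS 3 and 68.5 to 203 FPKM elsewhere, thalamic markers to 225 FPKM in FMT-CON 1 and 15.6 to 117 FPKM elsewhere, and pituitary markers to 3591 FPKM in FMT-CON 3 and 2.99 to 24.0 FPKM elsewhere. The 6 choroid plexus markers summed to 1305 to 2922 FPKM in the 4 FMT-DSS libraries, to 3606, 2045, 89.4 and 30.2 FPKM in FMT-CON 1 to 4 and to 18.1, 1854, 3834 and 55.6 FPKM in FMT-SP 1 to 4. All FMT-DSS libraries were thus high, while FMT-CON and FMT-SP each held high and low ones, and the part of choroid plexus in the differences described here was not tested. Markers of cerebellar granule and Purkinje cells, which also use Neurod1 or Calb1, summed to at most 0.752 FPKM. The 3 libraries numbered 4 stood apart in mitochondrially encoded transcripts, which made up 24.0% to 29.0% of summed FPKM there and 15.9% to 20.3% in the 9 remaining libraries.

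**Figure D1:**
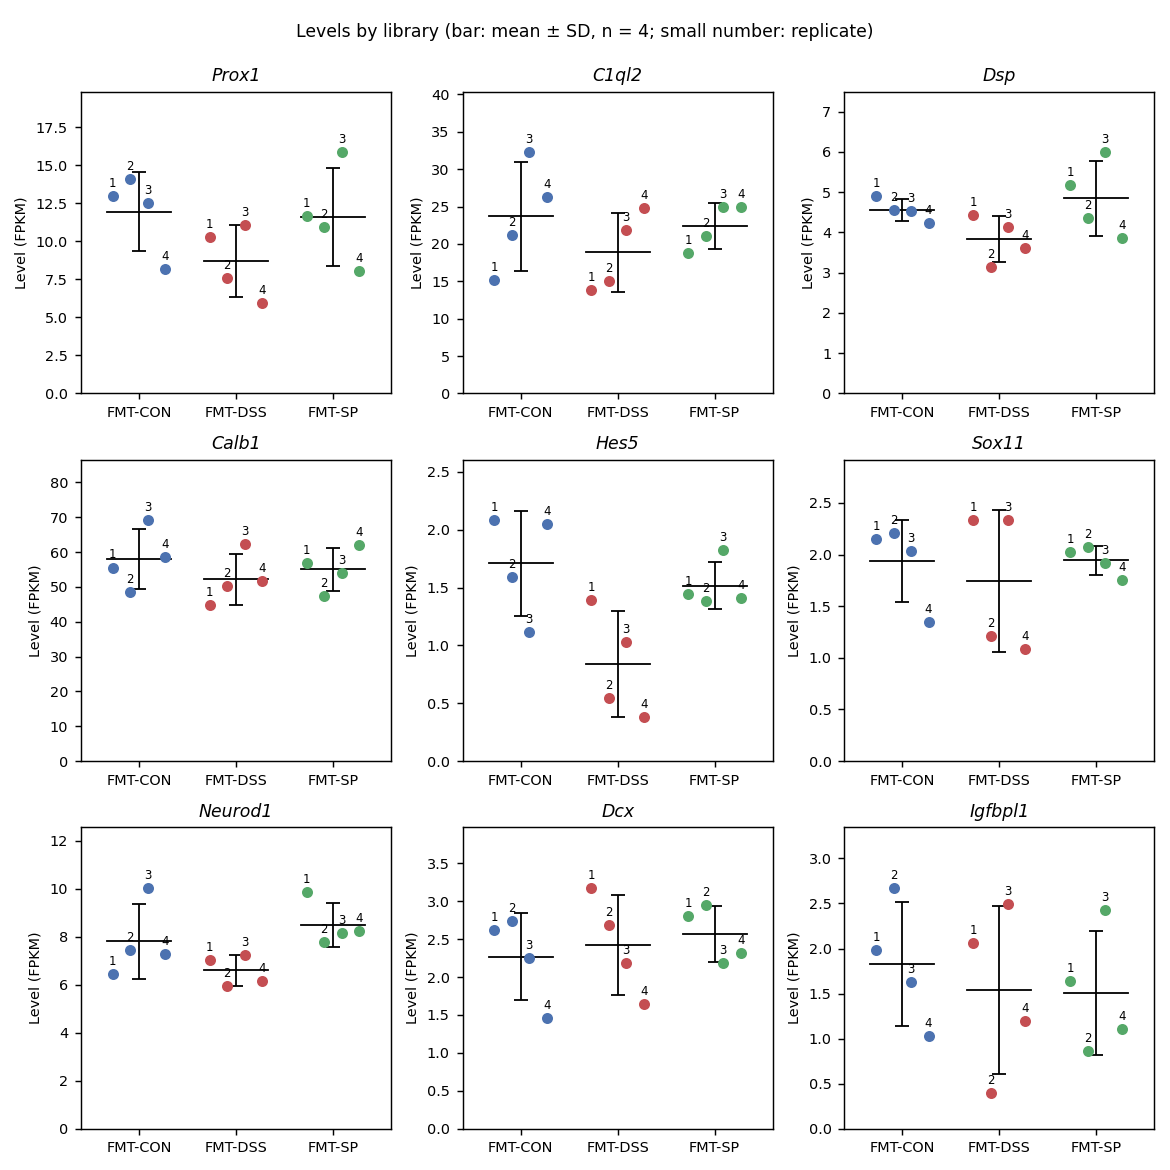
Level in FPKM (vertical axes, from 0) of the 4 mature granule markers and the 5 progenitor and immature neuron genes in each library, by group, with mean ± SD (n = 4) and the replicate number above each point. Hes5 is lowest in FMT-DSS 2 and FMT-DSS 4, and Prox1 has its lowest value of each group in the library numbered 4.

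FMT-DSS against FMT-CON asks how hippocampal RNA of mice given FMT-DSS differed from that of FMT-CON mice. Of the 9 genes, 8 had lower means in FMT-DSS and only Dcx a higher one, while 59.7% of all tested genes had lower means. These counts, and all later counts of higher and lower means, compare means of log2(FPKM + 1), which for genes with close group means can differ in direction from means of FPKM. The median difference of the 9 was -0.21 on the log2(FPKM + 1) scale, against -0.03 over all tested genes. No member passed limma's test adjusted over all genes, as no gene did (0% called, 0 of 12559), and 1 member, Hes5, was under an unadjusted p of 0.05, as were 4.06% of all tested genes. Groups overlapped in all 9 genes, and 1.75% of tested genes had groups that did not overlap. In bulk tissue, fewer cells of a type and less RNA per cell cannot be told apart. Without FMT-DSS 2 and FMT-DSS 4, 6 of the 9 had lower means, the median was -0.10 and 0 members were under an unadjusted p of 0.05. The share of all tested genes under that p was then 1.29%. The count was 2 without FMT-CON 1 (3.59% of all tested genes), FMT-CON 4 (5.07%) or FMT-DSS 3 (9.54%). FMT-DSS 2 and FMT-DSS 4 held the lowest FMT-DSS values of Prox1, Dsp, Hes5, Sox11, Neurod1 and Igfbpl1. Leaving these 2 libraries out therefore raises the FMT-DSS means of those genes whatever the cause.

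Among the mature markers, Prox1 (chromosome 1, 190118035 to 190170714, minus strand, GRCm38) had the largest difference. Prox1 was at 12.996, 14.1, 12.5 and 8.20 FPKM in FMT-CON 1 to 4, at 10.3, 7.58, 11.04 and 5.97 FPKM in FMT-DSS 1 to 4, and at 11.7, 10.9, 15.8 and 8.05 FPKM in FMT-SP 1 to 4. The library numbered 4 was lowest in each group, and the groups overlapped. FMT-DSS had a mean of 8.71 ± 2.36 FPKM (SD, n = 4) and FMT-CON 11.9 ± 2.58, a log2 difference of -0.42 ± 0.22 (SE), with an adjusted p of 0.966 by limma. Without FMT-DSS 2 and FMT-DSS 4 the difference was -0.13. An opposite-strand gene, Prox1os (3.21 to 8.57 FPKM), shares 133 exon bases with Prox1, and Gm10129 shares 499 with Dsp. Where counting ignored strand, such reads cannot be told apart.

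C1ql2 (chromosome 1, 120340582 to 120343174) was at 15.2, 21.2, 32.3 and 26.3 FPKM in FMT-CON 1 to 4, at 13.9, 15.0, 21.8 and 24.9 in FMT-DSS 1 to 4, and at 18.8, 21.0, 24.9 and 24.9 in FMT-SP 1 to 4. Its low libraries were FMT-DSS 1, FMT-DSS 2 and FMT-CON 1, the library rich in thalamic markers, whose part in the value was not tested. Its highest was FMT-CON 3, the library with pituitary markers (5 of 6 at more than 10 FPKM there, and Tshb at 0.35), whose part was likewise not tested. The difference of FMT-DSS from FMT-CON was -0.30 ± 0.22 and became -0.14 without FMT-CON 3 and -0.49 without FMT-CON 1.

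Dsp (chromosome 13, 38151294 to 38198577) was at 4.90, 4.55, 4.53 and 4.24 FPKM in FMT-CON 1 to 4, at 4.43, 3.14, 4.12 and 3.62 in FMT-DSS 1 to 4, and at 5.18, 4.34, 5.99 and 3.87 in FMT-SP 1 to 4. FMT-DSS 2 was the lowest of the 12 and FMT-SP 3 the highest. FMT-DSS differed from FMT-CON by -0.21 ± 0.13. Calb1 (chromosome 4, 15881264 to 15908064), which interneurons and striatal neurons also express, was at 55.6, 48.5, 69.2 and 58.5 FPKM in FMT-CON 1 to 4, at 44.7, 50.2, 62.2 and 51.8 in FMT-DSS 1 to 4, and at 56.8, 47.2, 54.1 and 62.1 in FMT-SP 1 to 4. Calb1 was the steadiest of the 9, with a difference of -0.15 ± 0.13 that ran from -0.23 to -0.06 with any 1 library left out. Its highest FMT-DSS value was in FMT-DSS 3, the library with striatal markers at 411 FPKM, whose part in the value was not tested. The 6 markers of CA1 pyramidal cells, other neurons of this tissue, all had higher means in FMT-DSS (median 0.38). Over all tested genes, 59.7% had lower means. In FMT-SP against FMT-DSS, 5 of the 6 CA1 markers had lower means and 1 a higher one (median -0.14). CA1 markers summed to 115 FPKM in FMT-CON 1, the library rich in thalamic markers. They summed to 174, 220 and 243.5 in FMT-CON 2 to 4 and to 203 to 283 in FMT-DSS. Of the 6 CA3 pyramidal markers, 5 had lower means and 1 a higher one in FMT-DSS against FMT-CON (median -0.16). In FMT-SP against FMT-DSS, 5 CA3 markers had higher means and 1 a lower one (median 0.05), against 58.9% higher over all tested genes. The part of CA1 cells in the Calb1 values was not tested. Of 14 further granule cell genes 12 were tested, 11 with lower and 1 with a higher mean in FMT-DSS, against 59.7% lower over all tested genes. The median of the 12 was -0.20 and 0 passed the adjusted test. This list was chosen with earlier results known and measured in the same libraries, so it is not separate support. Stxbp6, which encodes a partner of SNARE proteins, was at 12.9 ± 1.93 FPKM for FMT-DSS against 17.5 ± 3.48 for FMT-CON, and Lct, the lactase gene, at 3.86 ± 2.66 and 5.52 ± 0.321. FMT-DSS 2 and FMT-DSS 4 had the lowest Lct values, 0.835 and 2.42 FPKM, and the remaining 10 libraries 4.62 to 7.03.

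Among progenitor genes, Hes5 (chromosome 4, 154960923 to 154962371, plus strand), the gene with 2 Rbpj-type matches in its promoter, had the largest difference of the 9. Hes5 was at 2.08, 1.59, 1.12 and 2.05 FPKM in FMT-CON 1 to 4, at 1.39, 0.548, 1.03 and 0.383 in FMT-DSS 1 to 4, and at 1.45, 1.39, 1.82 and 1.41 in FMT-SP 1 to 4. FMT-DSS 2 and FMT-DSS 4 were the lowest of all 12 libraries, while FMT-DSS 1 lay within the FMT-CON range. Counting error, taken from the estimated fragments, gave 95% exact Poisson intervals of 0.358 to 0.803 FPKM in FMT-DSS 2 and 0.223 to 0.613 FPKM in FMT-DSS 4, below the 0.738 to 1.40 FPKM of FMT-DSS 3 in the latter but not the former library. These intervals cover counting error only. The FMT-DSS mean was 0.837 ± 0.459 FPKM against 1.71 ± 0.454 for FMT-CON (SD, n = 4), a log2 difference of -0.58 ± 0.18 with a 95% interval of -0.96 to -0.19. Hes5 ranked at 37 of 12559 genes by p (unadjusted p of 0.00660, adjusted p of 0.966 by limma). The exact two-sided permutation p over the 70 assignments was 0.0571, where the smallest possible is 0.0286.

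The 2 libraries low in Hes5 were also low in microglia markers and high in erythrocyte markers. All 8 microglia markers were in the table and none was at 0 in any library. Their sum was 76.7 FPKM in FMT-DSS 2 and 53.1 FPKM in FMT-DSS 4, against 106 to 116 in the other 2 FMT-DSS libraries, 86.8 to 122 in FMT-CON and 98.5 to 121 in FMT-SP. The 5 erythrocyte markers summed to 588 and 717 FPKM in the same 2 libraries, to 218 and 399 in the other FMT-DSS libraries, 138 to 389 in FMT-CON and 124 to 1337 in FMT-SP. Markers of astrocytes, which also make Hes5, summed to 817 FPKM in FMT-DSS 2, the highest of all, and 551 FPKM in FMT-DSS 4. The part of these cell types in the Hes5 values was not tested. Without FMT-DSS 2 and FMT-DSS 4 the Hes5 difference was -0.28, and without FMT-DSS 2 or FMT-DSS 4 alone it was -0.51 or -0.45. As these are the 2 lowest Hes5 values, leaving them out raises the FMT-DSS mean whatever the cause. An opposite-strand gene model, Gm20421, shares 433 exon bases with Hes5, and where counting ignored strand their reads cannot be told apart.

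Other genes of the Notch pathway more often had higher than lower means in FMT-DSS, while 59.7% of all tested genes had lower ones. Of 15 genes, 12 were tested, with 9 higher and 3 lower means, a median of 0.03 and 0 passing the adjusted test. Hey2, a related repressor, was at 1.79 ± 0.343 FPKM for FMT-DSS against 1.41 ± 0.451 for FMT-CON, and Jag2, a Notch ligand, at 10.3 ± 3.63 and 8.21 ± 1.34. Of 12 genes on a stem cell and radial glia-like list 11 were tested, with 5 higher and 6 lower means, a median of -0.15 and 0 passing. The 12 genes summed to 110 to 198 FPKM per library, against 10.5 to 17.8 for the 5 progenitor and immature neuron genes. Their levels are not taken here as those of stem cells alone, and the part of other cells was not tested. Fabp7, a fatty acid binding protein of radial glia, was at 34.9, 43.7, 24.2 and 30.1 FPKM in FMT-CON 1 to 4 and at 11.4, 4.11, 21.6 and 12.4 in FMT-DSS 1 to 4. These 2 groups did not overlap for Fabp7, whose difference was -1.51 ± 0.48 with an adjusted p of 0.966 by limma, and FMT-SP ranged from 13.9 to 64.5 FPKM across both. Lpar1, a lysophosphatidic acid receptor used as a stem cell marker, was at 3.54 ± 1.51 FPKM for FMT-DSS against 5.77 ± 2.02 for FMT-CON.

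Neuroblast and immature neuron genes showed smaller differences. Neurod1 (chromosome 2, 79452521 to 79456751) was at 6.44, 7.46, 10.0 and 7.29 FPKM in FMT-CON 1 to 4, at 7.02, 5.95, 7.24 and 6.17 in FMT-DSS 1 to 4, and at 9.85, 7.76, 8.16 and 8.23 in FMT-SP 1 to 4. Its difference of FMT-DSS from FMT-CON was -0.20 ± 0.13, and -0.09 without FMT-CON 3, the library in which it was highest and in which pituitary markers summed to 3591 FPKM. The pituitary also expresses Neurod1, and its part in that value was not tested. Sox11 (chromosome 12, 27334264 to 27342574) was at 2.15, 2.21, 2.04 and 1.35 FPKM in FMT-CON 1 to 4, at 2.33, 1.21, 2.33 and 1.08 in FMT-DSS 1 to 4, and at 2.03, 2.08, 1.92 and 1.76 in FMT-SP 1 to 4. FMT-DSS thus held a pair of high and a pair of low libraries, and its difference of -0.12 ± 0.17 turned to 0.19 without FMT-DSS 2 and FMT-DSS 4. These are the low pair, so leaving them out raises the FMT-DSS mean of Sox11 whatever the cause.

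Dcx (chromosome X, 143855842 to 143933311) was at 2.62, 2.74, 2.26 and 1.46 FPKM in FMT-CON 1 to 4, at 3.18, 2.69, 2.19 and 1.64 in FMT-DSS 1 to 4, and at 2.81, 2.95, 2.19 and 2.31 in FMT-SP 1 to 4. The group means of Dcx were 2.27 ± 0.577, 2.42 ± 0.661 and 2.56 ± 0.369 FPKM, closer together than the libraries of any group, and the difference of FMT-DSS from FMT-CON was 0.06 ± 0.17 with a 95% interval of -0.30 to 0.43. Igfbpl1 (chromosome 4, 45809468 to 45826923) was at 1.99, 2.67, 1.62 and 1.03 FPKM in FMT-CON 1 to 4, at 2.06, 0.396, 2.49 and 1.20 in FMT-DSS 1 to 4, and at 1.64, 0.868, 2.42 and 1.11 in FMT-SP 1 to 4. It spread widely inside every group, and its difference of -0.21 ± 0.29 turned to 0.24 without FMT-DSS 2 and FMT-DSS 4. These held its lowest FMT-DSS values, so leaving them out raises the FMT-DSS mean of Igfbpl1 whatever the cause. The 6 genes of olfactory-lineage neuroblasts, which can also carry Dcx, Sox11 and Igfbpl1, summed to 10.1 to 20.6 FPKM in FMT-CON, 9.85 to 22.5 in FMT-DSS and 13.3 to 15.9 in FMT-SP, with none at 0. They too were lowest in FMT-DSS 4, FMT-CON 4 and FMT-DSS 2. Their highest sum, 22.5 FPKM, was in FMT-DSS 3, where striatal markers summed to 411 FPKM. FMT-CON 2 (20.6 FPKM) and FMT-DSS 1 came next. Without FMT-DSS 2 and FMT-DSS 4, the differences of Sox11 and Igfbpl1 thus rest on the FMT-DSS libraries highest in these neuroblast genes. The part of such neuroblasts in the values of Sox11 and Igfbpl1 was not tested.

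Of 15 further genes on an immature neuron list 13 were tested. In FMT-DSS 12 had a lower and 1 a higher mean of log2(FPKM + 1), where 59.7% of all tested genes had lower ones. The median was -0.06 and 0 passed. The 15 genes summed to 612 to 972 FPKM per library, against 10.5 to 17.8 for the 5 progenitor and immature neuron genes. Their levels are not taken here as those of immature neurons alone, and the part of other neurons was not tested. Among the 12, Sema3c had nearly equal mean FPKM, 4.564 for FMT-DSS against 4.558 for FMT-CON. Stmn1, the microtubule regulator stathmin, was at 331, 245, 296 and 316 FPKM in FMT-CON 1 to 4 and at 241, 177, 230 and 225 in FMT-DSS 1 to 4. Those groups did not overlap, with a difference of -0.44 ± 0.12 and an adjusted p of 0.966 by limma. Tubb3, a neuronal tubulin, was at 154 ± 23.5 FPKM for FMT-DSS against 199 ± 40.1 for FMT-CON. Of 6 intermediate progenitor genes and 10 cell cycle genes, only 3 of each reached a mean of 1 FPKM. Insm1 was at 0.968 ± 0.346 FPKM for FMT-DSS against 1.18 ± 0.173 for FMT-CON, and Ccna2, a cyclin, at 1.62 ± 0.488 and 1.18 ± 0.267. For C1ql2, 6 of 7 genes of its family and its partners were tested (3 higher, 3 lower, median -0.02), with Adgrb3, a receptor for C1q-like proteins, at 17.6 ± 1.63 FPKM for FMT-DSS against 14.5 ± 1.30 for FMT-CON. Among partners of Dsp, 4 of 6 were tested (1 higher, 3 lower, median -0.13), with Pkp4 at 46.8 ± 6.43 and 51.8 ± 5.92 FPKM.

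**Figure D2:**
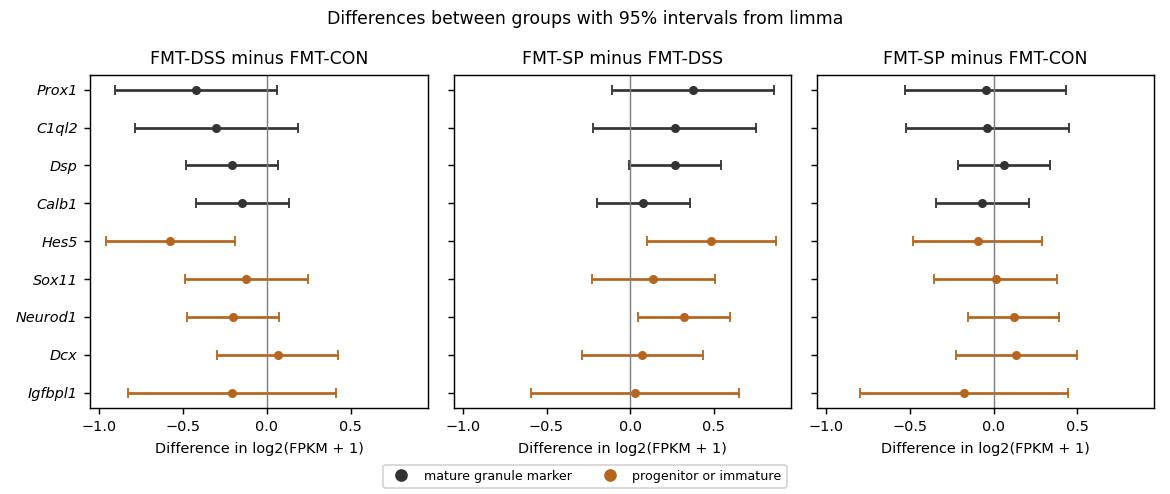
Difference in log2(FPKM + 1) between groups (horizontal axes) for the 9 genes in the 3 comparisons, with 95% intervals from limma, black for mature granule markers and brown for progenitor and immature neuron genes. The interval leaves out 0 for Hes5 in FMT-DSS minus FMT-CON and for Hes5 and Neurod1 in FMT-SP minus FMT-DSS, before any adjustment over genes.

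FMT-SP against FMT-DSS asks how the group with substance P differed from FMT-DSS. On the log2(FPKM + 1) scale all 9 genes had higher means in FMT-SP, as had 58.9% of tested genes. In FPKM the mean of Igfbpl1 was lower, at 1.51 in FMT-SP and 1.54 in FMT-DSS. The median difference of the 9 genes was 0.27 against 0.03 over all tested genes. By limma 0 members passed (0% of tested genes called), and Hes5 and Neurod1 were under an unadjusted p of 0.05, as were 2.50% of all genes. This comparison shares its 4 FMT-DSS libraries with the one above, so opposite signs are not independent. Leaving out FMT-DSS 2 and FMT-DSS 4 lowers the differences of Prox1, Dsp, Hes5, Sox11, Neurod1 and Igfbpl1 whatever the cause, as these libraries held their lowest FMT-DSS values. Without FMT-DSS 2 and FMT-DSS 4, 6 of the 9 had higher means, the median was 0.08 and 0 members were under an unadjusted p of 0.05. The share of all tested genes was then 0.836%. The count was also 0 without FMT-DSS 2 (1.27% of all tested genes) or FMT-DSS 4 (1.19%) alone. It was 1 when FMT-SP 1 was left out (1.67%), 3 when FMT-DSS 1 was left out (6.35%) and 4 when FMT-SP 4 was left out (2.21%). With the replicate number as a block, 5 members (Prox1, C1ql2, Dsp, Hes5 and Neurod1) were under an unadjusted p of 0.05, as were 7.05% of all genes, and the smallest adjusted p of a member was 0.672 by limma.

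Neurod1 was the only one of the 9 whose groups did not overlap, where 1.27% of all tested genes had this property. Its FMT-SP libraries lay between 7.76 and 9.85 FPKM and its FMT-DSS libraries between 5.95 and 7.24. The means were 8.50 ± 0.923 and 6.60 ± 0.630 FPKM (SD, n = 4), a log2 difference of 0.32 ± 0.13 with a 95% interval of 0.05 to 0.60, an unadjusted p of 0.0245 and an adjusted p of 0.999 by limma. The exact two-sided permutation p was 0.0286, the smallest that 4 against 4 allows. The difference ran from 0.26 to 0.36 with any 1 library left out, and was 0.22 without FMT-DSS 2 and FMT-DSS 4. Neurod1 shares 201 exon bases with Cerkl on its own strand (0.438 to 1.49 FPKM), so a small part of its reads may be assigned to either.

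Hes5 was at 1.52 ± 0.206 FPKM in FMT-SP, a difference from FMT-DSS of 0.48 ± 0.18 with an adjusted p of 0.999 by limma (exact permutation p of 0.0571). The 4 FMT-SP values, 1.39 to 1.82 FPKM, and FMT-DSS 1 at 1.39 touched at the edge. Without FMT-DSS 2 and FMT-DSS 4, the 2 libraries lowest in Hes5, the difference was 0.19. Prox1 differed by 0.38 ± 0.22, C1ql2 by 0.27 ± 0.22, Dsp by 0.27 ± 0.13 and Calb1 by 0.08 ± 0.13. Without FMT-DSS 2 and FMT-DSS 4 the Prox1 difference was 0.08, while that of C1ql2 was 0.34. For the remaining genes the values were 0.14 ± 0.17 for Sox11, 0.07 ± 0.17 for Dcx and 0.03 ± 0.29 for Igfbpl1, and these turned to -0.18, -0.04 and -0.42 without the 2 libraries.

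Of the 12 further granule cell genes tested, 10 had higher and 2 lower means in FMT-SP (median 0.24, 0 passing). Over all tested genes, 58.9% had higher means. Npnt, an extracellular matrix protein gene, was at 6.53 ± 1.02 FPKM for FMT-SP against 4.71 ± 1.49 for FMT-DSS, and Lct at 5.83 ± 1.12 and 3.86 ± 2.66. Genes on the stem cell list were split, with 5 of 11 higher, 6 lower and a median of -0.00. Fabp7 was at 31.0 ± 23.4 FPKM in FMT-SP, where FMT-SP 3 alone stood at 64.5. Of 13 tested genes on the immature neuron list 9 had higher and 4 lower means (median 0.18). Among them, Bhlhe22, a transcription factor gene, was at 24.8 ± 1.34 and 19.2 ± 4.02 FPKM and Stmn1 at 255 ± 25.9 and 218 ± 28.4. The Notch genes had 5 higher and 7 lower means (median -0.02), among them Hey2 at 1.43 ± 0.443 and Jag2 at 8.35 ± 1.80 FPKM in FMT-SP. In the cell cycle list all 3 tested genes had lower means, with Ccna2 at 0.987 ± 0.181 and 1.62 ± 0.488 FPKM and Mcm2, a replication licensing factor, at 1.20 ± 0.295 and 1.33 ± 0.482. Insm1 was at 1.22 ± 0.189 FPKM and Elavl2, an RNA-binding protein gene, at 2.26 ± 0.438 in FMT-SP, against 0.968 ± 0.346 and 2.10 ± 0.562 in FMT-DSS. C1ql3, the close relative of C1ql2, was at 49.8 ± 6.06 and 42.0 ± 3.13 FPKM, and Ctnnb1, the beta-catenin gene, at 127 ± 17.0 and 113 ± 18.4. None of these listed genes passed limma's adjusted test.

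FMT-SP against FMT-CON asks whether the group with substance P differed from FMT-CON. Of the 9 genes 4 had higher and 5 lower means, against 46.7% and 53.3% of all tested genes. The median difference was -0.04 for the 9 and -0.01 for all. Groups overlapped in all 9, and 0.494% of tested genes had groups that did not. No member was under an unadjusted p of 0.05, where 0.358% of all tested genes were, and 0 passed the adjusted test by limma (0% of tested genes called). The largest differences were -0.18 ± 0.29 for Igfbpl1, 0.14 ± 0.17 for Dcx and 0.12 ± 0.13 for Neurod1. The 95% intervals were -0.53 to 0.43 for Prox1, -0.52 to 0.45 for C1ql2, -0.21 to 0.34 for Dsp, -0.34 to 0.21 for Calb1 and -0.48 to 0.29 for Hes5 on the log2(FPKM + 1) scale, and differences within them are not excluded. All 3 tested cell cycle genes and 8 of 11 genes on the stem cell list had lower means in FMT-SP. Higher means were found for 8 of 13 genes on the immature neuron list and 7 of 12 further granule cell genes. Of all these genes, 0 passed.

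Prox1 and C1ql2, both markers of granule cells, had a Pearson's r of -0.01 over the 12 libraries and of 0.53 without the 3 numbered 4, given as a description. Their ratio was highest in FMT-CON 1 at 0.856 and lowest in the libraries numbered 4, at 0.312 in FMT-CON 4, 0.240 in FMT-DSS 4 and 0.323 in FMT-SP 4. The longest annotated transcript of Prox1 has 7913 bases and that of C1ql2 2000. Across all tested genes with a length (12120 of 12559), the 1175 with transcripts over 7000 bases had a median of -0.29, -0.37 and -0.23 in FMT-CON 4, FMT-DSS 4 and FMT-SP 4 relative to each gene's own median, and -0.09 to 0.13 in the other 9 libraries. The 1420 genes with transcripts of up to 1500 bases had medians of 0.11 to 0.14 in those 3 libraries. Prox1, Sox11 (8311 bases) and Dcx (9074) were lower there, at -0.38, -0.37 and -0.49 in FMT-CON 4, -0.78, -0.54 and -0.39 in FMT-DSS 4, and -0.40, -0.14 and -0.06 in FMT-SP 4. Dsp, with the longest transcript of the 9 (9592 bases), was at -0.04, -0.22 and -0.15, which in FMT-SP 4 is lower than Sox11 and Dcx. The part of transcript length in these values was not tested. With the 3 libraries numbered 4 left out, a choice made after seeing the data, the Prox1 difference was -0.43 for FMT-DSS against FMT-CON and 0.37 for FMT-SP against FMT-DSS, and that of Hes5 -0.39 and 0.38.

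**Figure D3:**
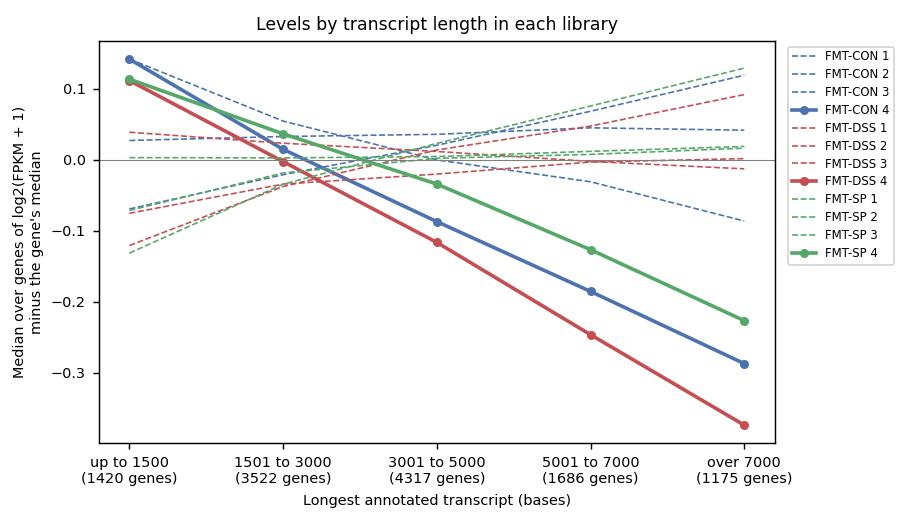
Median over genes of log2(FPKM + 1) minus each gene's median (vertical axis) by length of the longest annotated transcript (horizontal axis, 5 classes with their gene counts), 1 line per library, solid and thick for those numbered 4. The 3 solid lines fall to between -0.23 and -0.37 in genes over 7000 bases.

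**Figure D4:**
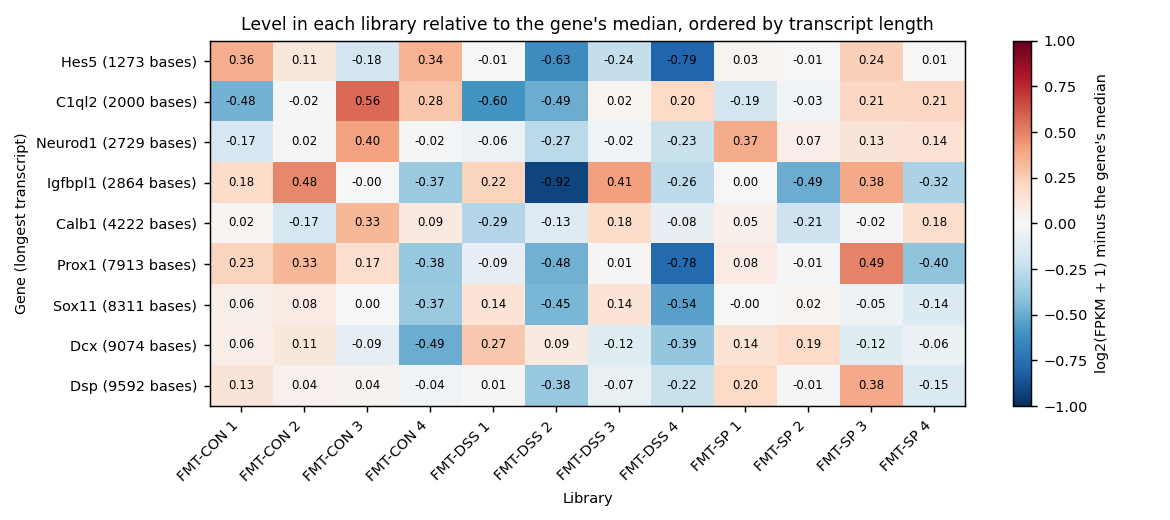
Log2(FPKM + 1) of the 9 genes in each library minus the gene's median over the 12 libraries (colour and printed value), ordered from the shortest transcript at the top to the longest at the bottom. FMT-DSS 2 is below the median in 8 of 9 genes, for example at -0.63 for Hes5 and -0.48 for Prox1, with Dcx at 0.09, whereas C1ql2 at 0.20 and Prox1 at -0.78 differ in sign in FMT-DSS 4.

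Among the 36 pairs of the 9 genes over the 12 libraries, Prox1 and Dsp varied most alike, with Pearson's r of 0.84 (permutation p of 5.3e-04, 0.0191 adjusted over the 36 pairs) and Spearman's rho of 0.90 (permutation p of 1.3e-04, 0.00468 adjusted). Without the 2 libraries farthest from the Prox1 median r was 0.77, and without the 3 libraries numbered 4 it was 0.89. Prox1 and Sox11 had r of 0.79 (permutation p of 0.00220, 0.0396 adjusted) and rho of 0.56 (permutation p of 0.0621, 0.224 adjusted), and r was 0.57 without the libraries numbered 4. C1ql2 and Dcx ran in opposite directions (r of -0.66, permutation p of 0.0197, 0.0973 adjusted; rho of -0.73, permutation p of 0.00886, 0.115 adjusted), which did not pass the adjustment. These genes share libraries, depth and tissue makeup, so a correlation here is a description of the libraries.

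Set against the summed FPKM of the 4 mature markers (73.3 to 118 per library), Dcx came to 2.37% ± 0.786 in FMT-CON, 2.998% ± 1.14 in FMT-DSS and 2.77% ± 0.630 in FMT-SP (SD, n = 4). Neurod1 came to 7.92% ± 0.635, 7.97% ± 1.12 and 9.09% ± 1.17, and Sox11 to 2.01% ± 0.547, 2.10% ± 0.857 and 2.09% ± 0.316. For Igfbpl1 the shares were 1.93% ± 0.891, 1.81% ± 1.06 and 1.58% ± 0.637. Hes5 came to 1.80% ± 0.614, 1.025% ± 0.630 and 1.61% ± 0.162, with a range of 0.444% to 1.90% in FMT-DSS and of 1.42% to 1.81% in FMT-SP. All these ranges overlapped between FMT-DSS and the other groups, and Calb1 alone made up 53.6% to 66.1% of the sum. Calb1 is also expressed outside granule cells, so the sum is not of granule cells alone.

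The genes most like the 4 mature markers over the 12 libraries, by Pearson's r with the mean of their centred log2(FPKM + 1), were Dnajb3 (0.92), Mrpl35 (0.90), Mrpl18 (0.89), Cfap418 (0.89) and Mtln (0.89). For the 5 progenitor and immature neuron genes they were Eri1 (0.98), Snx16 (0.98), Gtf2e1 (0.97), Zfp324 (0.97) and Ldah (0.97). The mean of the 5 genes was lowest at -0.40 (FMT-DSS 4) and -0.39 (FMT-DSS 2) and ran from -0.14 to 0.20 across the remaining 10. Mature markers had their lowest mean in FMT-DSS 2, at -0.34, and their highest in FMT-CON 3, at 0.30, with FMT-SP 3 at 0.29.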

How the data were processed

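Deposited values are FPKM per gene and library, computed by the authors. Per the submitters' processing notes, HISAT2 2.0 and the genome build mm8 were named, with no role. Neither counter nor annotation is named in the sources used here. Groups and replicate numbers came from the sample titles. Values were fitted as log2(FPKM + 1) with limma 3.58.1 in R 4.3.3 (mean-variance trend, all 12 libraries in 1 fit, genes whose mean reached 1 FPKM, two-sided, Benjamini-Hochberg over 12559 genes, threshold 0.05); the code was tested on simulated data. Changes in FPKM of low genes are understated on this scale. Exact permutation tests used FPKM.

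The 9 genes and all lists were chosen with earlier results of these data known. Named beside them are the 2 tested genes of smallest p per list and comparison, and the 5 genes most like each set (1 gene so named is not reported here); Lct and Fabp7 library values and single-library markers were picked after their values were seen. Gene models come from GENCODE vM21 (GRCm38). Depth was estimated from FPKM steps in 4216 genes with a single transcript: 42.2% to 45.3% of low values lay within 0.05 of a whole fragment, against 10% by chance. Deviations of same-numbered libraries from their group means had correlations of 0.11 to 0.69 between FMT-SP and FMT-DSS. They were 0.01 to 0.72 between FMT-DSS and FMT-CON and -0.45 to 0.84 between FMT-SP and FMT-CON. The highest value of each was that of the libraries numbered 4. Libraries of different number reached 0.28 (FMT-DSS 1 and FMT-SP 2), 0.66 (FMT-CON 2 and FMT-DSS 1) and 0.68 (FMT-CON 1 and FMT-SP 3). Each FMT-DSS library correlated most with the FMT-SP library of its own number, at 0.36, 0.35, 0.11 and 0.69 for numbers 1 to 4. With FMT-CON this did not hold, as FMT-CON 1 and FMT-SP 1 had -0.33 and FMT-CON 3 and FMT-SP 3 -0.45. Pairing by number is thus not shown across the 3 groups, and between FMT-SP and FMT-DSS it was not tested. The labels do not say what a number marks. Alternatives were another pseudocount, filter, scaling and set of libraries, and the replicate block.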

Additional observations from a re-analysis of the deposited data

Results flagged for a closer look

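Hes5 was at 1.82 FPKM in FMT-SP 3, while FMT-SP 1, 2 and 4 lay between 1.39 and 1.45. The gap to the nearest library was large for the range of the group by Dixon's test at its 95% critical value of 0.829. With 27 groups of 4 examined (9 genes in 3 groups), it was the 1 group past that value, which chance passes in about 1 of 20 groups.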

How the results depend on the processing

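In 567 refits of the 27 differences (9 genes, 3 comparisons), 540 kept their direction, 27 turned sign and 0 passed the adjusted threshold, the smallest adjusted p being 0.436 (Prox1, FMT-DSS against FMT-CON, replicate block). The count of genes passing was 0 in every comparison and setting. Pseudocount 0.1 and median-ratio rescaling turned no sign. Both filters, the fit on 2 groups and the block leave each difference itself the same and change only its error. Leaving out libraries of a group not compared does so too. The 540 include these refits, whose direction was fixed in advance. Genes at an unadjusted p under 0.05 numbered 510 for FMT-DSS against FMT-CON, 314 for FMT-SP against FMT-DSS and 45 for FMT-SP against FMT-CON, and ran from 162 to 1274, 105 to 908 and 14 to 456; the replicate block gave 1274, 885 and 310 and changed no call. With the block, 3 members (Prox1, C1ql2 and Hes5) were under an unadjusted p of 0.05 in FMT-DSS against FMT-CON in place of 1, as were 10.1% of all tested genes in place of 4.06%. A pseudocount of 0.1 moved Hes5 to -1.05 and 0.92.

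Without FMT-DSS 2 and FMT-DSS 4, Sox11 and Igfbpl1 turned to 0.19 and 0.24 in FMT-DSS against FMT-CON. In FMT-SP against FMT-DSS, Sox11, Dcx and Igfbpl1 turned to -0.18, -0.040 and -0.42. These 2 libraries held the lowest FMT-DSS values of Sox11 and Igfbpl1, so the direction of those 2 genes' shifts was fixed in advance. The cause was not tested. Without the libraries numbered 4, Dcx was -0.012 in FMT-SP against FMT-DSS and Sox11 -0.059 in FMT-SP against FMT-CON. Without FMT-CON 1, FMT-CON 3 and FMT-DSS 3, Prox1 was 0.065 and Calb1 0.040 in FMT-SP against FMT-CON. With 1 library left out, signs turned in FMT-DSS against FMT-CON for Dcx (-0.066 to 0.18) and Igfbpl1 (-0.39 to 0.051), in FMT-SP against FMT-DSS for Dcx (-0.046 to 0.17) and Igfbpl1 (-0.23 to 0.21), and in FMT-SP against FMT-CON for Prox1 (-0.20 to 0.10), C1ql2 (-0.22 to 0.12), Dsp (-0.029 to 0.14), Calb1 (-0.15 to 0.020) and Sox11 (-0.090 to 0.061). Depth limits Hes5 most, at about 17 fragments in FMT-DSS 4.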

Other observations

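Eomes, the transcription factor of intermediate progenitors, stayed under the mean of 1 FPKM needed for the test. It was at 0.82, 1.02, 1.15 and 0.10 FPKM in FMT-CON 1 to 4, at 0.68, 0.23, 1.22 and 0.20 in FMT-DSS 1 to 4, and at 0.34, 0.19, 0.89 and 0.16 in FMT-SP 1 to 4. The lowest values were in the 3 libraries numbered 4 and in FMT-SP 2. Mki67, a marker of dividing cells, ranged from 0.07 FPKM in FMT-DSS 2 to 0.51 in FMT-DSS 1, and Top2a, a topoisomerase of dividing cells, from 0.09 to 0.89 in the same libraries. These genes were named here after their values were seen.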
